A study of Homo sapiens with 6 samples.

Results

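Genes of receptor tyrosine kinase signaling were followed across 3 human lung cancer cell lines in messenger RNA sequencing, 9 receptors (MET, MST1R, AXL, TYRO3, IGF1R, FGFR1, FGFR2, FGFR3 and FGFR4) and the ligand GAS6. They were chosen by name, as receptors and a ligand that are known as bypass routes in lung cancer with a mutant EGFR. The choice was made with earlier results of these data known. All 10 of them were found by symbol among the 26485 genes of the abundance tables. The lines were PC9-AMG, PC9-BrM4 and PC9, with 2 libraries each and the same conventional culture for all. PC9 is an established lung adenocarcinoma line that carries a mutant EGFR. PC9-BrM4 is known in the literature as a derivative that colonizes the brain, although the labels say nothing of it. The sources used here do not spell out AMG, and the labels name no drug, no clone and no passage for any of the lines, so no group can be read as drug-treated or drug-resistant.

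The receptors named here sit in the cell membrane, where binding of a ligand brings receptor chains together, whose kinase domains then phosphorylate each other. The phosphorylated tails recruit adaptors such as GRB2 and GAB1 and feed the RAS to ERK and the PI3K to AKT cascades, which mutant EGFR also drives. In lung cancer with a mutant EGFR they are known because a second active receptor can keep those cascades running while EGFR is blocked. MET binds hepatocyte growth factor (HGF), MST1R (also called RON) binds macrophage-stimulating protein, AXL and TYRO3 belong with MERTK to the TAM family that binds GAS6, IGF1R binds insulin-like growth factors, and the FGFR genes encode the fibroblast growth factor receptors.

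Transcript levels are in TPM, which scales each gene by its length and each library to the same total. They are relative within a library, and in these bulk samples fewer cells of a type and less RNA per cell cannot be told apart. The aligned sequence behind a library, estimated from the deposited coverage and FPKM, came to 3.93 and 4.39 gigabases in PC9-AMG, 3.13 and 3.84 in PC9-BrM4, with 3.42 and 2.66 in PC9. A gene was tested with limma on log2(TPM + 1) where it reached 1 TPM in at least 2 of the 6 libraries, which 14195 genes did, and it was called at a Benjamini-Hochberg adjusted p of 0.05 over all of them. Whether the libraries of a line came from separate cultures is not stated, so the p-values cover the spread between these libraries alone, and it may be technical. With 2 libraries against 2, an exact permutation test of a single gene cannot go below 0.333, so tests rest on the fit across all genes. Of the 10 genes 9 were tested, and each of these stood at or above 1 TPM in all 6 libraries. FGFR2 (chr10:121478330-121598458, minus strand) was not tested, because it was listed at 0 in 5 libraries and at 0.0255 TPM in PC9-BrM4 replicate 1.

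In PC9-BrM4 against PC9, FGFR3, GAS6, FGFR1 and FGFR4 were higher, and MET and AXL were lower. FGFR3 stood 3.25-fold higher by mean TPM, and GAS6 1.95-fold higher. These are 6 of the 9 tested genes called, 4 higher and 2 lower, where 46.6% of all tested genes were called (23.4% higher, 23.1% lower). The same 6 genes showed no overlap between the PC9-BrM4 and PC9 libraries, as did 75.2% of all tested genes (37.4% higher, 37.8% lower). The median log2 fold change of the 9 was 0.06, beside -0.0016 over all tested genes, and the median size without sign was 0.31, beside 0.208.

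In PC9-AMG against PC9, FGFR4, AXL, FGFR1, GAS6, TYRO3 and MET were higher, and FGFR3, IGF1R and MST1R were lower. FGFR4 stood 2.45-fold higher by mean TPM, and the others changed by less. All 9 tested genes were called, 6 higher and 3 lower, where 55.5% of all tested genes were called (27.8% higher, 27.7% lower). None of the 9 overlapped between the lines, as was so for 79.8% of all tested genes (39.6% higher, 40.2% lower). The median log2 fold change of the 9 was 0.24, beside -0.0058 over all tested genes, and the median size was 0.39, beside 0.256. The count rests on each of the 4 libraries compared: it was 5 without PC9-AMG replicate 2 and without PC9 replicate 1, and 4 without PC9-AMG replicate 1 and without PC9 replicate 2.

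In PC9-AMG against PC9-BrM4, FGFR4, AXL, MET and TYRO3 were higher, and FGFR3, GAS6 and FGFR1 were lower, while MST1R and IGF1R were not called. These are 7 of the 9 tested genes, 4 higher and 3 lower, where 56.1% of all tested genes were called (28.1% higher, 28.0% lower). All 9 had libraries that did not overlap, as did 77.5% of all tested genes (38.2% higher, 39.3% lower). The median log2 fold change of the 9 was -0.16 and the median size 0.52, beside 0.259 over all tested genes. The 3 comparisons share libraries, so they are not independent of each other.

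**Figure D1:**
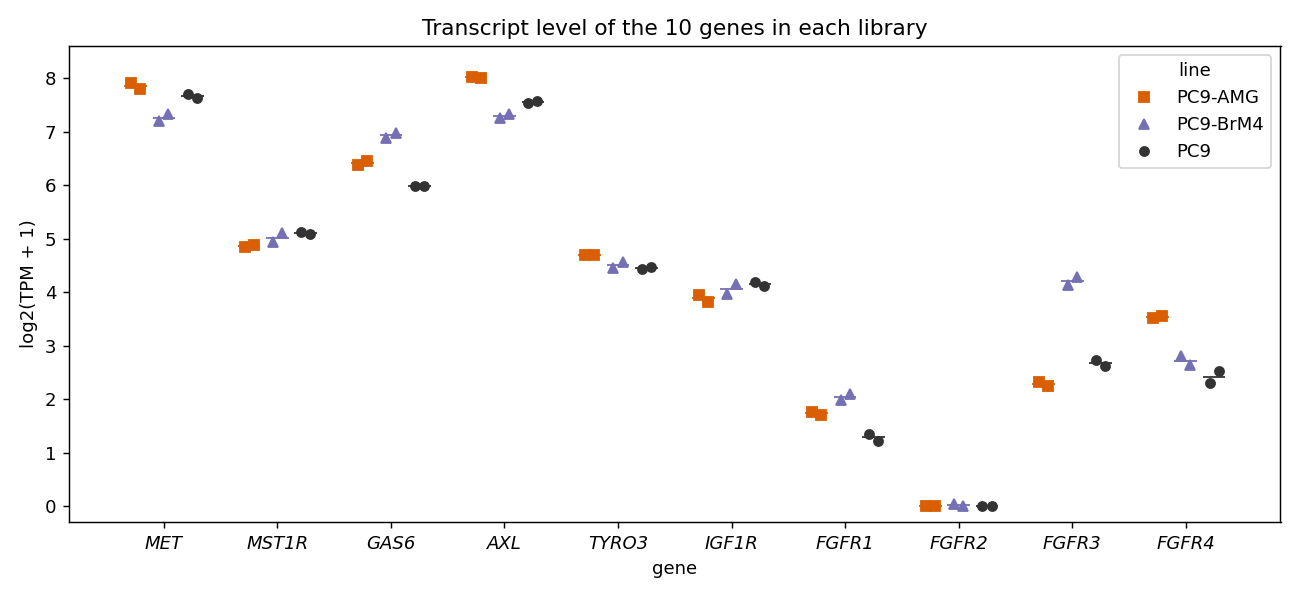
Level of the 10 genes in each of the 6 libraries, as log2(TPM + 1), with 2 points per line and a short bar at their mean. PC9-AMG is to the left, PC9-BrM4 in the middle and PC9 to the right of each gene; FGFR3 and FGFR4 show the widest spread between lines, and FGFR2 lies at or near 0 throughout.

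**Figure D2:**
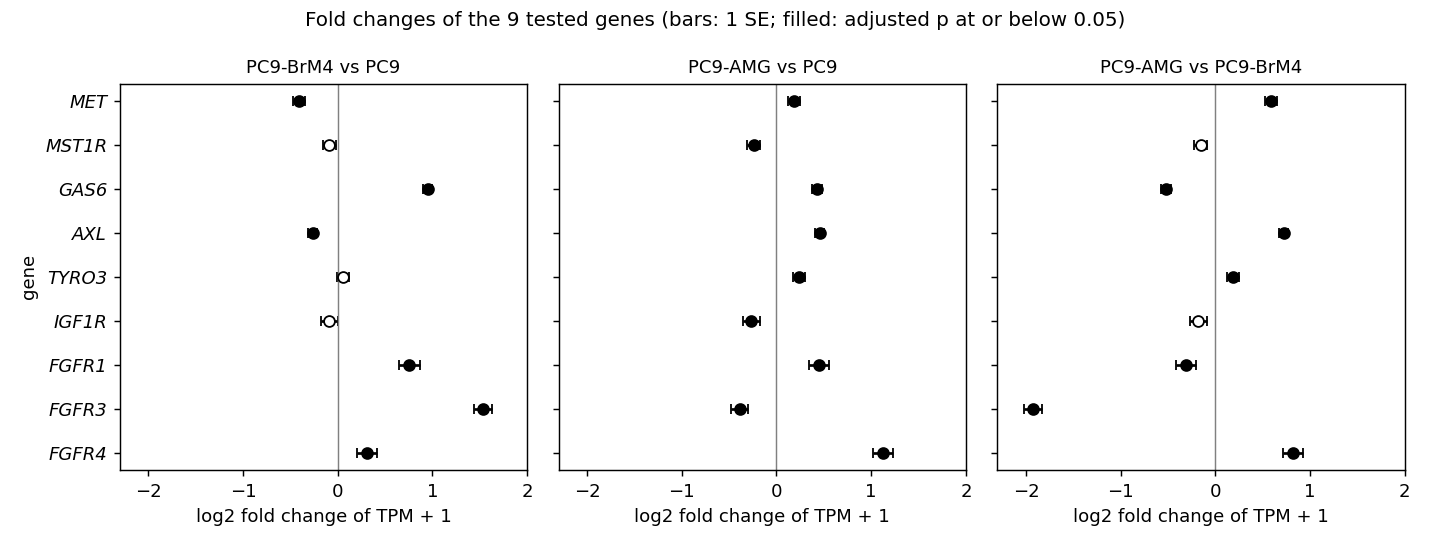
Log2 fold change of TPM + 1 for the 9 tested genes in the 3 comparisons, with bars of 1 SE from limma and filled points for genes called at an adjusted p of 0.05. FGFR3 lies at 1.54 in PC9-BrM4 against PC9 and at -1.93 in PC9-AMG against PC9-BrM4, the farthest points of the 3 panels.

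The line means spread unequally among the genes. FGFR3 had a range of 1.93 on the log2 scale between its highest and lowest line mean, wider than 98.4% of tested genes, followed by FGFR4 (1.13, wider than 92.6%) and GAS6 (0.95, wider than 89.1%). FGFR1 (0.76), AXL (0.72) and MET (0.59) came next. IGF1R (0.27), MST1R (0.24) and TYRO3 (0.24) were narrower than most genes, with 29.7%, 25.0% and 24.9% of tested genes below them.

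By TPM, 2 of the 9 receptors stood with EGFR at the top of the receptor kinases. Of 58 receptor kinase genes compared, the 9 receptors described here and 49 others, 28 or 29 reached 1 TPM in a library. In PC9-AMG, AXL ranked first (257 ± 4.01 TPM, SD, n = 2), ahead of MET (230.0 ± 12.9 TPM) and EGFR (209.6 ± 34.3 TPM). In PC9-BrM4 the order was different, with EGFR first (263 ± 56.1 TPM) ahead of DDR1, a collagen receptor (194 ± 17.9 TPM), AXL (156 ± 7.0 TPM) and MET (152 ± 9.30 TPM). In PC9, MET came first (202 ± 9.04 TPM), then AXL (187 ± 2.98 TPM) and EGFR (169 ± 12.9 TPM). The ranks of AXL depend on the unit. By deposited coverage, AXL stood below MET in every library, at 226 and 253 against 391 and 412 in PC9-AMG. Coverage was not compared for EGFR, DDR1 or the others, so the place of AXL among them holds for TPM alone.

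Some neighbours in these orders overlapped. The MET and EGFR libraries of PC9-AMG overlapped, as did the AXL and MET libraries of PC9-BrM4, so their order within the line is not settled by 2 libraries. EGFR had 234 and 185 TPM in PC9-AMG, 224 and 303 TPM in PC9-BrM4, and 178 and 159.5 TPM in PC9. It was higher in PC9-BrM4 than in PC9 (log2 fold change 0.62, limma adjusted p = 0.0122), a call that ended without PC9-BrM4 replicate 2 (0.0718), without PC9 replicate 2 (0.0589) or with all genes tested (0.159). Set against EGFR in the same library, MET stood at 1.02 and 1.19 times its TPM in PC9-AMG, 0.652 and 0.525 times in PC9-BrM4, and 1.17 and 1.23 times in PC9. MET thus stood below EGFR in both PC9-BrM4 libraries and above it in the other lines. Together the 9 receptors held 34.1% and 34.7% of the receptor kinase TPM in PC9-AMG, 26.4% and 25.6% in PC9-BrM4, with 33.3% and 33.3% in PC9. The share was thus below that of the other lines in both PC9-BrM4 libraries.

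**Figure D3:**
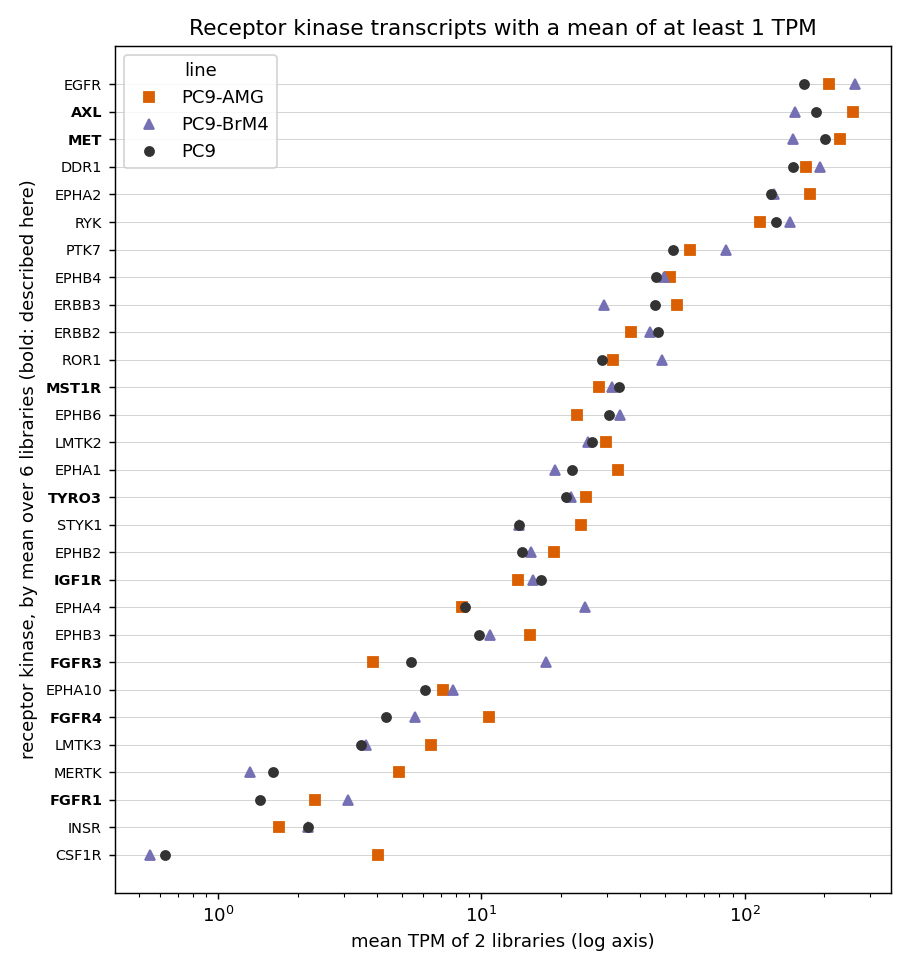
Mean TPM of 2 libraries per line, on a log axis, for the receptor kinase genes that averaged 1 TPM or more over the 6 libraries, ordered from the highest mean at the top; names in bold are the receptors described here. By TPM, AXL and MET stand beside EGFR at the top, while FGFR3, FGFR4 and FGFR1 stand in the lower part.

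Promoters are shown for the 4 receptors on which the results turn, the pair with the widest spread between lines (FGFR3 and FGFR4) and the pair that was lower in PC9-BrM4 and higher in PC9-AMG than in PC9 (MET and AXL). They come from RefSeq on GRCh38.p14, from 250 bases before to 50 bases after the gene start, 5′ to 3′ on the plus strand. The RefSeq starts differ from those of the deposited tables given below, and the MET window ends before the deposited start. The windows lie at chr4:1793043-1793342, chr5:177086665-177086964, chr7:116671946-116672245 and chr19:41218973-41219272. Capitals mark GC boxes (GGGCGG on either strand).
FGFR3: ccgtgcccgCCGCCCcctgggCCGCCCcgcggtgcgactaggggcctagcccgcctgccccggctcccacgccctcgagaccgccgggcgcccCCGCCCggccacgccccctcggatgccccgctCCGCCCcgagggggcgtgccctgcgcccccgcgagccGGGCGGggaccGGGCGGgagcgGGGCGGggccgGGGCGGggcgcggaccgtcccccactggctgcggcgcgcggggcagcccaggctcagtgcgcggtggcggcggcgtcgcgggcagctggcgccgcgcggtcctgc
FGFR4: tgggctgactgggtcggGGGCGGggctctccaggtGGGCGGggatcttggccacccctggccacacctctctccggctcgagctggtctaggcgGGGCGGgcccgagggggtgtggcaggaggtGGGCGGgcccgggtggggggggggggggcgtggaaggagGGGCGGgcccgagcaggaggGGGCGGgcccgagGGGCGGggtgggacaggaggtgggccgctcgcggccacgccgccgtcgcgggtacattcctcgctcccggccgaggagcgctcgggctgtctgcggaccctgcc
MET: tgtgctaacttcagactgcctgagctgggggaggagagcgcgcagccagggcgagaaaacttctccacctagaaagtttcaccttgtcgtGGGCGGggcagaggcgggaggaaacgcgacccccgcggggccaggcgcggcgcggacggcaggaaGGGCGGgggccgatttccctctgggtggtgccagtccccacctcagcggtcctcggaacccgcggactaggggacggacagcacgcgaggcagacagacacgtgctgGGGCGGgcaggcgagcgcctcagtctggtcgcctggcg
AXL: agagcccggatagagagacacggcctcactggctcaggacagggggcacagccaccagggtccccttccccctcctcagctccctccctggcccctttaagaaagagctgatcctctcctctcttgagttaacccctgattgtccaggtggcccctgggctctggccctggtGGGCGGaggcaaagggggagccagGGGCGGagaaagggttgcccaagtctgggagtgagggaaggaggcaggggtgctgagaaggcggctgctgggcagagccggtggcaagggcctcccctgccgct
The FGFR3 window holds 8 GC boxes and 51 CpG dinucleotides, and the FGFR4 window 7 and 30. The MET window holds 3 GC boxes and 30 CpG, and the AXL window 2 and 7. Over the 35116 RefSeq promoters of that length, 45.0% hold at least 1 GC box, and the median CpG count is 14. Of the promoters of the 10 genes, 9 were matched by symbol in the table, and 0 of the 4 printed windows hold the AP-1 letters TGANTCA, which 7.71% of all promoters hold, or the TATA letters TATAAA, which 11.5% hold. The E-box letters CANNTG, found in 68.7% of promoters, occur once in each of the 4 windows, and the TEAD letters GGAATG, found in 14.0%, occur in the FGFR4 window. All letters were searched on both strands, and a match describes the sequence without showing that a factor binds there.

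MET, the HGF receptor (chr7:116672405-116798386 on hg38, plus strand), was high in every library and lowest in PC9-BrM4. It had 239 and 221 TPM in PC9-AMG, 146 and 159 TPM in PC9-BrM4, and 208 and 196 TPM in PC9. The 3 lines did not overlap, with PC9-AMG highest and PC9-BrM4 lowest. The fall in PC9-BrM4 against PC9 was -0.41 on the log2 scale (SE 0.0618, limma adjusted p = 0.00150), and the difference of PC9-AMG over PC9-BrM4 was 0.59 (adjusted p = 0.000165). Over PC9, PC9-AMG was higher by 0.19 (limma adjusted p = 0.0348), a call that ended without PC9-AMG replicate 1 (0.186) or PC9 replicate 2 (0.187).

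Genes around MET moved too. Of the 20 other tested genes within 5 Mb of MET, 90% were lower in PC9-BrM4 than in PC9, with a median log2 fold change of -0.47, and 1.25% of tested genes have a regional median that low or lower. With that median taken off, the MET difference of PC9-BrM4 against PC9 came to 0.07 (limma adjusted p = 0.417), so the call ended and the sign turned. The same neighbours were lower in PC9-AMG than in PC9 at a median of -0.27, and there MET stood 0.45 above them (limma adjusted p = 0.000869). Against PC9, MET thus had the sign of its neighbours in PC9-BrM4 and the other sign in PC9-AMG. The part of the regional change in these results was not tested beyond taking off its median.

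MST1R, the receptor for macrophage-stimulating protein (chr3:49887003-49903873, minus strand), varied little. It had 27.8 and 28.3 TPM in PC9-AMG, 29.4 and 33.4 TPM in PC9-BrM4, and 33.8 and 32.9 TPM in PC9. PC9-BrM4 and PC9 overlapped, and PC9-AMG lay below both. The difference of PC9-AMG from PC9 was -0.24 (limma adjusted p = 0.0210), and the call ended without each of the 4 libraries in turn (0.0850 and 0.0674 without PC9-AMG replicate 1 and 2, 0.105 and 0.0672 without PC9 replicate 1 and 2). PC9-BrM4 was not called against PC9 (-0.09, limma adjusted p = 0.348). Nor was PC9-AMG called against PC9-BrM4 (-0.16, limma adjusted p = 0.0954), though without PC9-BrM4 replicate 1 it was (0.0198).

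Of the ligands of the 9 receptors, GAS6 had the highest level among those compared. The list of 23 other ligands (HGF, MST1, PROS1, IGF1, IGF2 and the FGF genes) had 12 listed at 0 in all 6 libraries, HGF and IGF1 among them, and 2 that were tested. MST1, which encodes macrophage-stimulating protein, had 1.61 and 1.66 TPM in PC9-AMG, 0.940 and 0.973 TPM in PC9-BrM4, and 2.35 and 1.77 TPM in PC9. FGF19, a hormone-like ligand of FGFR4, had 1.05 and 1.12 TPM in PC9-AMG, 0.674 and 0.681 TPM in PC9-BrM4, and 2.31 and 1.95 TPM in PC9. Both were thus lowest in PC9-BrM4 and highest in PC9. Both were under 1 TPM in PC9-BrM4 and entered the test through the other lines, so their differences from that line are given with no test, at log2 fold changes of -0.90 for FGF19 and -0.64 for MST1 in PC9-BrM4 against PC9. FGF19 fell in PC9-AMG against PC9 (-0.58, limma adjusted p = 0.00379), while MST1 was not called there (-0.21, 0.191). MST1 is uncertain, since its near-identical copy MST1P2 was listed at 1.25 to 2.15 TPM and reads can be split between them.

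The proteases PLAU and ST14, which activate HGF or macrophage-stimulating protein, were highest in PC9-AMG. Of the 6 genes listed for that activation, 4 proteases and 2 inhibitors, 5 were tested and HGFAC was not. All 5 were called higher in PC9-AMG than in PC9, as were 27.8% of all tested genes. PLAU, ST14, HPN and SPINT2 were also called higher in PC9-AMG than in PC9-BrM4, as were 28.1% of all tested genes. The rise of the inhibitor SPINT1 over PC9 (0.16, limma adjusted p = 0.0188) ended without PC9-AMG replicate 1 (0.0650), PC9-AMG replicate 2 (0.0573) or PC9 replicate 1 (0.144). That of SPINT2 over PC9 (0.18) turned to -0.11 with the regional median taken off (limma adjusted p = 0.0408), and that over PC9-BrM4 (0.38) ended (0.557). PLAU, the urokinase gene, averaged 362 ± 28.9 TPM in PC9-AMG, 125 ± 1.53 TPM in PC9-BrM4 and 208 ± 0.700 TPM in PC9 (SD, n = 2 each). ST14, the matriptase gene, averaged 289.6 ± 9.51 TPM in PC9-AMG, 209 ± 7.36 TPM in PC9-BrM4 and 177 ± 4.17 TPM in PC9. HPN, the hepsin gene, averaged 4.48 ± 0.251 TPM in PC9-AMG, 0.801 ± 0.155 TPM in PC9-BrM4 and 1.61 ± 0.267 TPM in PC9. The pattern of PLAU, highest in PC9-AMG and lowest in PC9-BrM4, was that of MET. Its differences were 0.79 for PC9-AMG over PC9 (limma adjusted p = 4.10e-05) and -0.73 for PC9-BrM4 against PC9 (7.16e-05). In PC9-BrM4 against PC9, 1 of the 5 genes was called higher (ST14, 0.24) and 3 lower (PLAU, HPN and SPINT2), where 46.6% of all genes were called. SPINT2, which encodes an inhibitor of these proteases, averaged 855 ± 18.4 TPM in PC9-BrM4 and 988 ± 9.58 TPM in PC9. HPN was under 1 TPM in PC9-BrM4 and entered the test through the other lines, so its calls against PC9-BrM4 support nothing. The ST14 call in PC9-BrM4 against PC9 ended with the regional median taken off (limma adjusted p = 0.120).

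GAS6, the vitamin K-dependent ligand of the TAM receptors (chr13:113820549-113864103, minus strand), differed between all 3 lines. It had 82.0 and 85.9 TPM in PC9-AMG, 117 and 125 TPM in PC9-BrM4, and 62.1 and 62.4 TPM in PC9. The lines did not overlap, with PC9-BrM4 highest and PC9 lowest. PC9-BrM4 was higher than PC9 by 0.95 (SE 0.0512, limma adjusted p = 1.43e-05), and PC9-AMG was higher than PC9 by 0.43 (0.000376). PC9-AMG was lower than PC9-BrM4 by a log2 fold change of -0.52 (limma adjusted p = 0.000118). The 3 calls held under all 16 alternative settings. GAS6-AS1, which lies on the other strand and shares 22293 bases with GAS6, was listed at 0.566 to 2.08 TPM, and the sources used here do not say whether strand was used in counting.

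AXL, a TAM receptor (chr19:41219199-41261767, plus strand), took another order than its ligand. It had 260.0 and 254 TPM in PC9-AMG, 151 and 161 TPM in PC9-BrM4, and 185 and 189 TPM in PC9. PC9-AMG was highest and PC9-BrM4 lowest, without overlap, whereas PC9-BrM4 was highest for GAS6. The log2 fold change was 0.46 for PC9-AMG over PC9 (SE 0.0455, limma adjusted p = 0.000161), -0.26 for PC9-BrM4 against PC9 (0.00262) and 0.72 for PC9-AMG over PC9-BrM4 (1.54e-05). The ratio of AXL to GAS6 TPM was 3.17 and 2.96 in PC9-AMG, 1.29 and 1.28 in PC9-BrM4, with 2.98 and 3.03 in PC9. PC9-BrM4 thus stood apart from the other lines. The size of this ratio depends on the unit. By deposited coverage, AXL stood at 106 and 134 in PC9-BrM4, below GAS6 at 157 and 198. In the other lines AXL stood above GAS6 by coverage too. Of the 204 other tested genes within 5 Mb of AXL, 89.2% were higher in PC9-AMG than in PC9, at a median log2 fold change of 0.37. With that median taken off, the AXL difference of PC9-AMG over PC9 came to 0.09 (limma adjusted p = 0.155), which ends the call. The differences of PC9-BrM4 against PC9 (-0.20, limma adjusted p = 0.0106) and of PC9-AMG over PC9-BrM4 (0.29, 0.00146) kept theirs, the last at a smaller size.

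**Figure D4:**
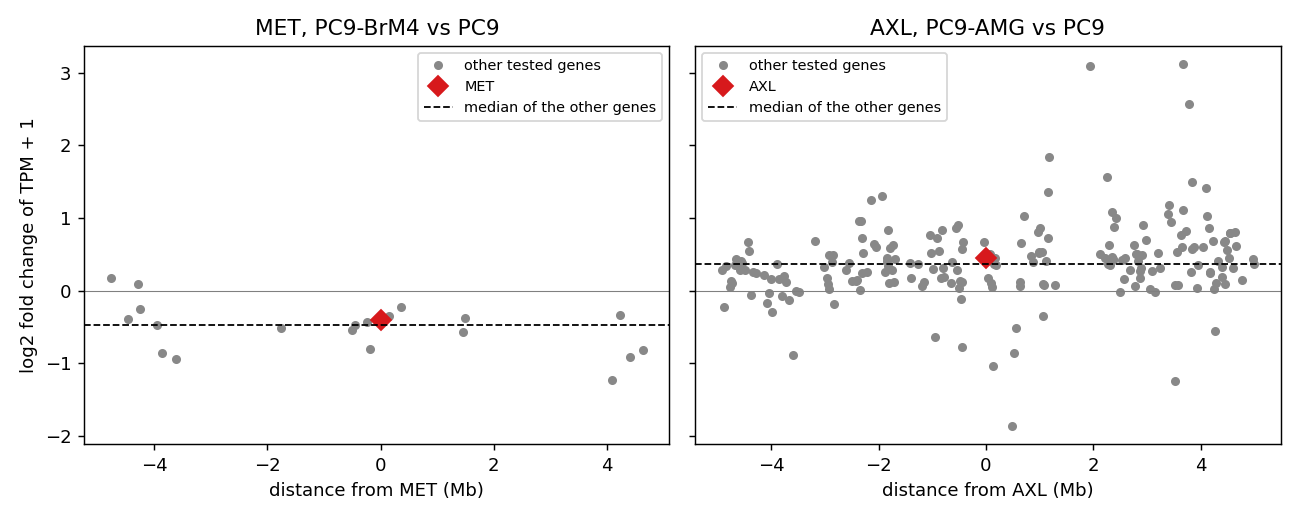
Log2 fold change of the tested genes within 5 Mb of MET in PC9-BrM4 against PC9 (left) and of AXL in PC9-AMG against PC9 (right), by distance from the gene in Mb; the red diamond is the gene itself and the dashed line the median of the others. MET (-0.41) lies near the median of its neighbours (-0.47), and AXL (0.46) near that of its own (0.37).

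The other TAM receptors were lower in level. TYRO3 (chr15:41559022-41579338, plus strand) had 24.9 and 25.0 TPM in PC9-AMG, 21.0 and 22.7 TPM in PC9-BrM4, and 20.7 and 21.2 TPM in PC9. PC9-AMG lay above the others, and PC9-BrM4 and PC9 overlapped. TYRO3 was called higher in PC9-AMG than in PC9 (0.24, limma adjusted p = 0.0143), a call that ended without each of the 4 libraries in turn (0.0537 to 0.0871). It was also called higher in PC9-AMG than in PC9-BrM4 (0.18, limma adjusted p = 0.0404), which ended without PC9-AMG replicate 1 (0.110), PC9-AMG replicate 2 (0.113), PC9-BrM4 replicate 1 (0.149), PC9 replicate 1 (0.0742) or PC9 replicate 2 (0.0744). PC9-BrM4 was not called against PC9 (0.06, limma adjusted p = 0.50). The processed copy TYRO3P was listed at 0.0172 to 0.147 TPM, so reads may be split between the copies. MERTK, the TAM receptor outside the 10 genes, had 5.0 and 4.72 TPM in PC9-AMG, 1.35 and 1.29 TPM in PC9-BrM4, and 1.63 and 1.60 TPM in PC9. It was higher in PC9-AMG than in PC9 by 1.17 (limma adjusted p = 8.15e-05). AXL, TYRO3 and MERTK were thus each called higher in PC9-AMG than in PC9, as were 27.8% of all tested genes. The AXL call ended with the regional median taken off, and that of TYRO3 without each of the 4 libraries. The MERTK call held under all 15 settings.

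IGF1R, the receptor of the insulin-like growth factors (chr15:98648539-98964530, plus strand), varied little between lines. It had 14.4 and 13.1 TPM in PC9-AMG, 14.6 and 16.9 TPM in PC9-BrM4, and 17.2 and 16.4 TPM in PC9. PC9-AMG was lowest, and PC9-BrM4 and PC9 overlapped. PC9-AMG was called lower than PC9 (-0.27, SE 0.0894, limma adjusted p = 0.0353), and the call ended without PC9-AMG replicate 1 (0.0509), PC9-AMG replicate 2 (0.174), PC9 replicate 1 (0.159) or PC9 replicate 2 (0.0790). PC9-BrM4 was not called against PC9 (-0.09, limma adjusted p = 0.443), nor PC9-AMG against PC9-BrM4 (-0.18, 0.125). Without PC9-BrM4 replicate 1, PC9-AMG was called lower than PC9-BrM4 (limma adjusted p = 0.0478).

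Genes of proteins that bind IGFs or cut their carriers moved over a wider range than the receptor. Of the 14 genes of IGF binding and receptor adaptors, 12 were tested; 6 were higher and 5 lower in PC9-BrM4 than in PC9, and 3 were higher and 5 lower in PC9-AMG than in PC9. These are 91.7% and 66.7% of the 12, beside 46.6% and 55.5% of all tested genes. Without PC9 replicate 2, the counts in PC9-BrM4 against PC9 were 3 higher and 4 lower, and 4 higher without PC9 replicate 1 or PC9-BrM4 replicate 2. IGFBP3, which encodes a binding protein that carries IGFs in plasma, averaged 219 ± 15.9 TPM in PC9-AMG, 142 ± 0.788 TPM in PC9-BrM4 and 399 ± 5.30 TPM in PC9. IGFBP6, whose product prefers IGF2, averaged 256 ± 4.4 TPM in PC9-AMG, 65.5 ± 1.47 TPM in PC9-BrM4 and 199.6 ± 9.42 TPM in PC9. IGFBP4 averaged 77.2 ± 3.68 TPM in PC9-AMG, 196 ± 1.80 TPM in PC9-BrM4 and 174 ± 3.12 TPM in PC9. The binding proteins thus took different orders, with PC9-BrM4 lowest for IGFBP3 and IGFBP6 and PC9-AMG lowest for IGFBP4. IGFBP5 averaged 1.14 ± 0.0539 TPM in PC9-AMG, 1.45 ± 0.0619 TPM in PC9-BrM4 and 7.92 ± 0.487 TPM in PC9, and fell in PC9-AMG (-2.06, limma adjusted p = 9.26e-06) and in PC9-BrM4 (-1.86, 1.44e-05) against PC9.

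The largest rise of that list in PC9-BrM4 over PC9 was PAPPA, a protease that cuts IGFBP4, at 8.93 ± 1.22 TPM in PC9-BrM4 and 3.20 ± 0.0905 TPM in PC9 (1.24, limma adjusted p = 0.000159). PAPPA was also higher in PC9-AMG than in PC9 (0.69, limma adjusted p = 0.00173). GRB14, an adaptor that binds and restrains insulin receptors, averaged 5.75 ± 0.106 TPM in PC9-AMG, 9.53 ± 0.0127 TPM in PC9-BrM4 and 5.65 ± 0.0277 TPM in PC9. Its relative GRB10 was called higher in PC9-AMG than in PC9 (0.42, limma adjusted p = 0.00347). GRB10 was also called higher in PC9-AMG than in PC9-BrM4 (0.33, limma adjusted p = 0.00979), until PC9-AMG replicate 1 (0.0651) or PC9-BrM4 replicate 1 (0.0626) was left out. IRS1, the docking protein on which IGF1R signals, had 15.5 and 14.2 TPM in PC9-AMG, 15.7 and 17.6 TPM in PC9-BrM4, and 23.8 and 22.1 TPM in PC9. It was lower in PC9-AMG (-0.60, limma adjusted p = 0.000776) and in PC9-BrM4 (-0.45, 0.00387) than in PC9.

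The FGF receptors changed in make-up between the lines. FGFR3 (chr4:1793312-1808872, plus strand) had 3.98 and 3.77 TPM in PC9-AMG, 16.5 and 18.5 TPM in PC9-BrM4, and 5.64 and 5.13 TPM in PC9. PC9-BrM4 lay far above the others and PC9-AMG below PC9, without overlap. The log2 fold change was 1.54 for PC9-BrM4 over PC9 (SE 0.0929, limma adjusted p = 2.49e-05) and -1.93 for PC9-AMG against PC9-BrM4 (4.92e-06), and both calls held under all 16 alternative settings. The fall of PC9-AMG against PC9 (-0.39, limma adjusted p = 0.00904) ended without PC9-AMG replicate 2 (0.0522) or PC9 replicate 1 (0.0629).

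FGFR4 (chr5:177086872-177098142, plus strand), the FGF receptor best known in liver for sensing FGF19, had its highest level in PC9-AMG. It had 10.5 and 10.8 TPM in PC9-AMG, 5.96 and 5.25 TPM in PC9-BrM4, and 3.93 and 4.76 TPM in PC9. The lines did not overlap, with PC9 lowest. PC9-AMG was higher than PC9 by 1.13 (SE 0.106, limma adjusted p = 0.000128) and than PC9-BrM4 by 0.82 (0.000470), calls that held under all 16 alternative settings. The rise in PC9-BrM4 over PC9 (0.31, limma adjusted p = 0.0466) was near the threshold and ended under 11 of 16 settings. Of the 82 other tested genes within 5 Mb of FGFR4, 79.3% were higher in PC9-BrM4 than in PC9 at a median of 0.23, and with that taken off the FGFR4 difference there was 0.08 (limma adjusted p = 0.595).

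FGFR1, the FGF receptor best known in mesenchymal cells, was the lowest of the tested receptors described here, leaving aside the other receptor kinases. It had 2.39 and 2.26 TPM in PC9-AMG, 2.95 and 3.29 TPM in PC9-BrM4, and 1.55 and 1.33 TPM in PC9. The lines did not overlap, with PC9-BrM4 highest and PC9 lowest, but the levels are low and the log2(TPM + 1) scale understates their change. PC9-BrM4 was higher than PC9 by 0.76 (SE 0.109, limma adjusted p = 0.00113). PC9-AMG was higher than PC9 by 0.45 (limma adjusted p = 0.00962), until PC9-AMG replicate 1 (0.0529) or PC9 replicate 2 (0.0548) was left out. It was lower than PC9-BrM4 by a log2 fold change of -0.31 (limma adjusted p = 0.0431), a call that ended without each of those 4 libraries in turn (0.0569 to 0.155).

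Summed over FGFR1, FGFR2, FGFR3 and FGFR4, the level was 16.8 ± 0.0627 TPM in PC9-AMG, 26.3 ± 1.11 TPM in PC9-BrM4 and 11.2 ± 0.0638 TPM in PC9 (SD, n = 2 each). FGFR4 made up 62.3% and 64.1% of that sum in PC9-AMG, 23.4% and 19.4% in PC9-BrM4, with 35.3% and 42.4% in PC9. FGFR3 made up 23.6% and 22.4% in PC9-AMG, 64.9% and 68.4% in PC9-BrM4, with 50.7% and 45.8% in PC9. FGFR4 was thus the main FGF receptor transcript in PC9-AMG and FGFR3 in PC9-BrM4, while PC9 held more of FGFR3 than of FGFR4 in both libraries. The ratio of FGFR3 to FGFR4 TPM was 0.378 and 0.350 in PC9-AMG, 2.78 and 3.52 in PC9-BrM4, with 1.43 and 1.08 in PC9.

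**Figure D5:**
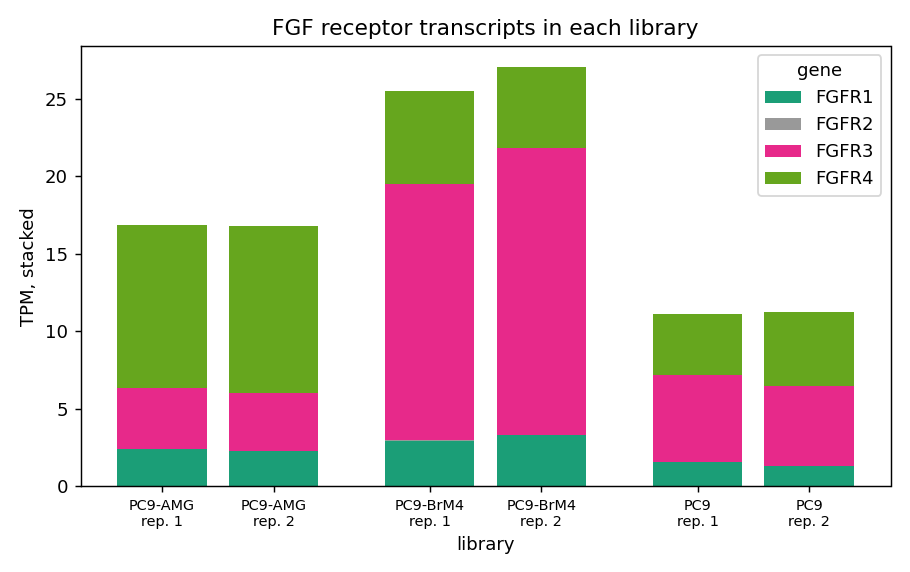
TPM of the 4 FGF receptor genes, stacked per library, with 2 libraries each of PC9-AMG, PC9-BrM4 and PC9 along the horizontal axis. FGFR4 takes the largest part of the 2 PC9-AMG bars and FGFR3 of the 2 PC9-BrM4 bars, while FGFR2 is not visible at this scale.

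Some partners of the FGF receptors differed between the lines. Of the 16 co-receptors and FGF-binding genes listed, 12 were tested; 3 were higher and 5 lower in PC9-BrM4 than in PC9, 0 higher and 5 lower in PC9-AMG than in PC9, and 3 higher and 6 lower in PC9-AMG than in PC9-BrM4. These are 66.7%, 41.7% and 75% of the 12, beside 46.6%, 55.5% and 56.1% of all tested genes. KL and FGFBP3 were under 1 TPM in PC9-AMG and entered the test through the other lines, so these counts are descriptions. In PC9-AMG against PC9, the calls of GLG1 and FLRT3 ended with the regional median taken off (limma adjusted p = 0.166 and 0.410). In PC9-BrM4 against PC9 the count was 2 higher and 3 lower without PC9-BrM4 replicate 2. KL, the klotho co-receptor of FGF23, had 0.545 and 0.398 TPM in PC9-AMG, 3.35 and 3.61 TPM in PC9-BrM4, and 2.98 and 2.50 TPM in PC9. It lay under the 1 TPM filter in PC9-AMG, so its difference from PC9 there (-1.34 on the log2 scale) is given with no test. KLB, the co-receptor that FGF19 needs to act on FGFR4, was not tested and reached at most 0.0149 TPM in any library. FGFBP1, a secreted carrier that frees FGFs from the matrix, averaged 75.3 ± 4.51 TPM in PC9-AMG, 36.8 ± 0.968 TPM in PC9-BrM4 and 81.9 ± 1.92 TPM in PC9. PC9-BrM4 was thus low for FGFBP1, by -1.13 against PC9 (limma adjusted p = 1.10e-05).

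GPC1, a heparan sulfate proteoglycan that binds FGFs, averaged 209 ± 8.14 TPM in PC9-AMG, 331 ± 37.4 TPM in PC9-BrM4 and 221 ± 5.0 TPM in PC9. It was higher in PC9-BrM4 than in PC9 (0.57, limma adjusted p = 0.000671). PC9-AMG was lower than PC9-BrM4 (-0.66, limma adjusted p = 0.000235), a call that ended with the regional median taken off (0.269). FLRT2, a membrane protein that binds FGF receptors, averaged 1.09 ± 0.0837 TPM in PC9-AMG, 1.76 ± 0.00197 TPM in PC9-BrM4 and 3.64 ± 0.171 TPM in PC9, and was lower than PC9 in both lines. FRS2, the docking protein of the FGF receptors, had 11.6 and 10.2 TPM in PC9-AMG, 6.88 and 7.37 TPM in PC9-BrM4, and 10.5 and 10.1 TPM in PC9. It was lower in PC9-BrM4 than in PC9 (-0.47, limma adjusted p = 0.00391), where FGFR3 was higher, and with the regional median taken off that call ended (0.898).

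Adaptors that the receptors share changed in part. Of 17 such genes, all tested, 6 were higher and 2 lower in PC9-BrM4 than in PC9, and 5 higher and 1 lower in PC9-AMG than in PC9. These are 47.1% and 35.3% of the 17, the first near the 46.6% of all tested genes and the second under their 55.5%. Without PC9 replicate 2 there were 3 higher and 1 lower in both comparisons, and in PC9-BrM4 against PC9 4 were higher without PC9 replicate 1 or PC9-BrM4 replicate 2. GAB2, a docking protein for PI3K and SHP2, had the largest rise in both, at 16.1 ± 0.403 TPM in PC9-AMG, 28.8 ± 2.01 TPM in PC9-BrM4 and 6.93 ± 0.475 TPM in PC9. Its log2 fold change was 1.11 for PC9-AMG over PC9 (limma adjusted p = 4.39e-05) and 1.91 for PC9-BrM4 over PC9 (5.56e-06). GAB1, the docking protein that MET binds directly, was higher in PC9-BrM4 than in PC9 (0.42, limma adjusted p = 0.00533) and lower in PC9-AMG than in PC9-BrM4 (-0.59, 0.000714). SRC, a kinase that relays many receptor signals, averaged 45.6 ± 2.1 TPM in PC9-AMG, 29.9 ± 2.05 TPM in PC9-BrM4 and 25.9 ± 0.315 TPM in PC9, and rose in PC9-AMG over PC9 (0.79, limma adjusted p = 7.84e-05). GRB2, which links receptors to RAS, rose in PC9-AMG over PC9 (0.44, limma adjusted p = 0.000149), but not with the regional median taken off (0.807).

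Genes of receptor turnover, shedding and dephosphorylation moved in both directions. Of the 11 ubiquitin ligases, LRIG proteins, sheddases and phosphatases listed, 10 were tested; 4 were higher and 2 lower in PC9-BrM4 than in PC9, and 4 higher and 3 lower in PC9-AMG than in PC9. These are 60% and 70% of the 10, beside 46.6% and 55.5% of all tested genes, and in PC9-BrM4 against PC9 2 were higher without PC9 replicate 1 or PC9-BrM4 replicate 2. CBLB, a ubiquitin ligase that marks receptors for destruction, averaged 7.85 ± 0.804 TPM in PC9-AMG, 6.18 ± 0.172 TPM in PC9-BrM4 and 12.1 ± 0.109 TPM in PC9. It fell against PC9 in PC9-AMG (-0.57, limma adjusted p = 0.00137) and in PC9-BrM4 (-0.87, 0.000262). The related ligases CBLC (0.53, limma adjusted p = 0.000430) and CBL (0.48, 0.00801) rose in PC9-AMG over PC9, CBLC until the regional median was taken off (0.133) and CBL until PC9-AMG replicate 1 was left out (0.0567). PTPRJ, a receptor-type phosphatase, rose over PC9 in PC9-AMG (0.44, limma adjusted p = 0.000698) and in PC9-BrM4 (0.48, 0.000644). ADAM10, a sheddase that can cut receptors from the surface, averaged 88.2 ± 5.82 TPM in PC9-AMG, 106 ± 0.0660 TPM in PC9-BrM4 and 117 ± 4.74 TPM in PC9, and fell in PC9-AMG against PC9 (-0.40, limma adjusted p = 0.000832). The other sheddase listed, ADAM17, rose there (0.40, limma adjusted p = 0.00218), at 74.4 ± 7.15 TPM in PC9-AMG, 51.0 ± 1.87 TPM in PC9-BrM4 and 56.0 ± 0.878 TPM in PC9.

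Among the 49 other receptor kinases, 22 were tested and 11 were listed at 0 in all 6 libraries. Of the tested ones, 7 were higher and 3 lower in PC9-BrM4 than in PC9, 11 higher and 4 lower in PC9-AMG than in PC9, and 9 higher and 7 lower in PC9-AMG than in PC9-BrM4. These are 45.5%, 68.2% and 72.7% of the 22, beside 46.6%, 55.5% and 56.1% of all tested genes. In PC9-BrM4 against PC9, 4 were higher and 2 lower without PC9 replicate 2, and 2 were lower without each of the 4 libraries compared. EPHA4, a receptor for ephrins, averaged 8.45 ± 0.832 TPM in PC9-AMG, 24.8 ± 1.57 TPM in PC9-BrM4 and 8.67 ± 0.464 TPM in PC9, and like FGFR3 was highest in PC9-BrM4 (1.42 over PC9, limma adjusted p = 3.28e-05). ROR1 and PTK7, both of which take part in Wnt signaling, were also higher in PC9-BrM4 than in PC9 (0.73, limma adjusted p = 0.000278, and 0.65, 6.89e-05). ERBB3, a partner of EGFR with little kinase activity of its own, averaged 55.3 ± 1.3 TPM in PC9-AMG, 29.3 ± 0.835 TPM in PC9-BrM4 and 45.7 ± 1.80 TPM in PC9. It was lower in PC9-BrM4 than in PC9 (-0.63, limma adjusted p = 0.000129), as MET and AXL were, though not with the regional median taken off (0.111). CSF1R, best known in macrophages, averaged 4.03 ± 0.316 TPM in PC9-AMG, 0.550 ± 0.0560 TPM in PC9-BrM4 and 0.627 ± 0.135 TPM in PC9. EPHA7 averaged 0.315 ± 0.0315 TPM in PC9-AMG, 0.229 ± 0.0364 TPM in PC9-BrM4 and 2.05 ± 0.142 TPM in PC9. CSF1R, EPHA7, MST1, FGF19, HPN, KL, FLRT3 and FGFBP3 were under 1 TPM in at least 1 library and entered the test through the others, so the counts of the lists that hold them are descriptions.

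The genes whose levels followed the 3 most variable members most closely were found by the Euclidean distance between centred log2(TPM + 1) values over the 6 libraries, among the genes that averaged 10 TPM or more. The nearest to FGFR3 were PI3, which encodes elafin, an elastase inhibitor (14.3 TPM in PC9-AMG, 68.4 TPM in PC9-BrM4 and 24.6 TPM in PC9), CORO1A and ANPEP, an aminopeptidase gene (85.3 TPM in PC9-AMG, 383 TPM in PC9-BrM4 and 97.8 TPM in PC9). The nearest to FGFR4 were TMEM40, ERCC2 and SLC6A9, a glycine transporter gene, with 68.1 TPM in PC9-AMG, 38.5 TPM in PC9-BrM4 and 30.4 TPM in PC9. The nearest to GAS6 were BOP1, HS6ST1 and AFAP1L1. The distances of the first were 0.418 for FGFR3, 0.191 for FGFR4 and 0.121 for GAS6, beside medians of 2.04, 1.24 and 1.01 over all genes searched. With 3 lines of 2 libraries, many genes share any such order.

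Markers were checked against the label of lung cancer cells. All 12 epithelial markers were tested. Their summed level was 14839 and 15307 TPM in PC9-AMG, 10178 and 10281 TPM in PC9-BrM4, and 12897 and 12962 TPM in PC9. In PC9-BrM4 against PC9, 2 were called higher and 5 lower (58.3%, beside 46.6% of all tested genes). KRT7, KRT8, KRT18, KRT19 and ESRP1 were lower, and CDH1 (0.19) and ESRP2 (0.34) higher. The CDH1 and ESRP1 calls ended under 8 and 6 of 16 settings. With the regional median taken off, KRT8 (0.20) and KRT18 (0.13) were higher there. In PC9-AMG against PC9, 7 were called higher and 2 lower (75%, beside 55.5%). The lung lineage factor NKX2-1 was listed at 0 in all libraries but PC9-AMG replicate 1 (0.0409 TPM), and of that list only FOXA1, a pioneer factor of endoderm, was tested, at 13.8 ± 0.298 TPM in PC9-AMG, 2.79 ± 0.403 TPM in PC9-BrM4 and 20.3 ± 0.0130 TPM in PC9. The libraries thus held abundant keratin and adhesion transcripts and next to no NKX2-1, which many lung adenocarcinomas express. The 8 mesenchymal markers, 6 of them tested, summed to 52.2 and 50.6 TPM in PC9-AMG, 61.6 and 63.7 TPM in PC9-BrM4, and 84.5 and 84.0 TPM in PC9. Most called members were lower than in PC9. In PC9-AMG against PC9, VIM (-1.38), SNAI2 (-1.15) and CDH2 (-0.45) were called lower and SNAI1 (0.47) higher. In PC9-BrM4 against PC9, CDH2 (-1.46), SNAI2 (-0.60) and VIM (-0.34) were called lower and 0 higher. CDH2 was higher in PC9-AMG than in PC9-BrM4 (1.01). The SNAI1 call ended without PC9-AMG replicate 2 (limma adjusted p = 0.0620) or PC9 replicate 2 (0.0535). The 8 fibroblast and endothelial markers summed to 20.7 and 20.3 TPM in PC9-AMG, 5.99 and 6.67 TPM in PC9-BrM4, and 8.94 and 9.54 TPM in PC9, with COL1A2, DCN and LUM listed at 0 in all 6 libraries. Most of it was the collagen gene COL1A1, at 14.6 ± 0.239 TPM in PC9-AMG, 4.05 ± 0.528 TPM in PC9-BrM4 and 4.89 ± 0.177 TPM in PC9, and both COL1A1 (1.40) and CDH5 (0.53) were called higher in PC9-AMG than in PC9. The CDH5 call ended without PC9-AMG replicate 1 (limma adjusted p = 0.0642) or PC9 replicate 1 (0.0541). The 6 leukocyte markers summed to 42.3 to 50.2 TPM per library, most of it the lysosomal gene CD68, while PTPRC stayed at or under 0.150 TPM. CD68 (-0.29) was called lower in PC9-AMG than in PC9, and CSF1R, whose values are given above, is also in this list. The 5 astrocyte markers summed to 17.5 to 28.3 TPM, most of it ALDH1L1, and AQP4 reached at most 0.0123 TPM. ALDH1L1 was called higher in PC9-AMG than in PC9 (0.62), and the glutamate transporter gene SLC1A3, which passed the filter only through PC9-BrM4, averaged 0.961 ± 0.00549 TPM in PC9-AMG, 4.76 ± 0.0767 TPM in PC9-BrM4 and 0.546 ± 0.116 TPM in PC9. The part of these markers in the results on the receptors was not tested.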

How the data were processed

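Per the labels' protocols, TRIzol was used for RNA extraction and the TruSeq Stranded mRNA kit for library preparation, and the series text names a NextSeq kit. For each library the authors deposited a table of TPM, FPKM and coverage per gene with hg38 positions. The submitters' processing notes name HISAT2 2.1.0 beside StringTie 1.3.4d and bcl2fastq, with no role for each. The annotation release and strand setting are not stated in those sources. The whole-series table was left out, since 2 of its 6 columns carry names that the PC9-AMG labels lack. The tables of PC9-AMG carry EMG in their names where the titles say AMG, so their assignment rests on the sample records.

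Rows of 1 symbol were summed. Genes with at least 1 TPM in at least 2 libraries were tested on log2(TPM + 1) with limma 3.58.1 in R 4.3.3, as 1 mean per line over all 6 libraries with a mean-variance trend and 3 residual degrees of freedom, at a Benjamini-Hochberg adjusted p of 0.05. Depth in aligned bases is the median ratio of deposited coverage to deposited FPKM and is an estimate, and no counting interval is given because the tables used hold no counts. Regional values are medians over the other tested genes within 5 Mb. Alternatives were a pseudocount of 0.1, a filter of 5 TPM or none, FPKM, upper quartile or quantile scaling, no trend, a replicate block, each library left out, only the 4 libraries compared, and the regional median removed. The genes and the lists were chosen with earlier results of these data known. From each list and comparison, at most the 3 largest rises and falls were eligible to be named, among called genes averaging 1 TPM or more in the higher line, beside EGFR and the most abundant receptors. IRS1, KLB, SPINT1, HGFAC, the FRS2 value in PC9-BrM4 against PC9, the ADAM17 value in PC9-AMG against PC9 and the SPINT2 values in PC9-AMG were added after their values were seen. So were the MST1 and FLRT3 values in PC9-AMG against PC9.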

Additional observations from a re-analysis of the deposited data

Results flagged for a closer look

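FGFR3, AXL and MET differed from PC9 in opposite directions in PC9-AMG and PC9-BrM4. Each was also called in limma's direct comparison of PC9-AMG with PC9-BrM4. In the same fit that difference follows from the 2 comparisons with PC9, so it is not a separate result. FGFR3 was lower in PC9-AMG (-0.39) and higher in PC9-BrM4 (1.54) than in PC9, and the difference of PC9-AMG from PC9-BrM4 was -1.93. AXL was higher in PC9-AMG (0.46) and lower in PC9-BrM4 (-0.26), and the difference was 0.72. MET was higher in PC9-AMG (0.19) and lower in PC9-BrM4 (-0.41), and the difference was 0.59. With the regional median removed, MET in PC9-BrM4 against PC9 turned to 0.068 and the AXL call in PC9-AMG against PC9 ended (limma adjusted p = 0.155). In PC9-AMG against PC9, the call of MET ended without PC9-AMG replicate 1 (0.186) or PC9 replicate 2 (0.187), and that of FGFR3 without PC9-AMG replicate 2 (0.0522) or PC9 replicate 1 (0.0629). Both comparisons with PC9 use the same 2 PC9 libraries.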

How the results depend on the processing

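Of 429 values of the 9 tested genes under alternative settings, 369 kept their direction and their side of the threshold, 53 kept the direction but were no longer called, 4 were newly called and 3 changed sign. The sign changes were MET in PC9-BrM4 against PC9 with the regional median removed (0.068), and MST1R and IGF1R in the same comparison without PC9-BrM4 replicate 1. With a library left out in turn, MST1R there ranged from -0.18 to 0.0032 and IGF1R from -0.19 to 0.0086, and neither was called at first. The number of these genes called in PC9-AMG against PC9 (9) ranged from 4 to 9 when a library was left out and from 6 to 9 under the other settings. It ranged from 4 to 6 in PC9-BrM4 against PC9 (6) and from 5 to 9 in PC9-AMG against PC9-BrM4 (7), over all settings. Over all tested genes, same-numbered libraries did not deviate together (r = -0.07, -0.03 and -0.06). The labels do not say what the numbers share, and these values cannot decide whether same-numbered libraries were handled together. With the replicate block, FGFR4 in PC9-BrM4 against PC9 (limma adjusted p = 0.0759), MET (0.0548) and IGF1R (0.0602) in PC9-AMG against PC9, and TYRO3 (0.0532) and FGFR1 (0.0688) in PC9-AMG against PC9-BrM4 were no longer called, and no other call of the 9 genes changed. With no filter on low values, MET (limma adjusted p = 0.176), IGF1R (0.141) and MST1R (0.0945) in PC9-AMG against PC9, FGFR4 in PC9-BrM4 against PC9 (0.173), and TYRO3 (0.0625) and FGFR1 (0.0852) in PC9-AMG against PC9-BrM4 were no longer called. A filter of 5 TPM leaves FGFR1 untested. The scalings moved the median of all genes by at most 0.05 in size on the log2 scale. FGFR1, FGFR3 and FGFR4 are the genes most limited by depth, at a mean of 2.29, 8.93 and 6.86 TPM over the 6 libraries. Apart from what the settings themselves remove, the cause of these changes was not tested.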
